A study of Mus musculus with 2 samples.

Results

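The miR-34 and miR-449 microRNA (miRNA) genes of the mouse were examined in juvenile hippocampus. They were taken by gene name from the annotation, as Mir34a, Mir34b, Mir34c, Mir449a, Mir449b and Mir449c, and all 6 were found among the 2202 miRNA genes counted. MicroRNA sequencing had been run on 2 libraries of 1 group, biological replicates 1 and 2, from tissue labelled layer of hippocampus. The mice were male, 25 days old and of the B6CASTF1/J strain, a hybrid between CAST/EiJ and C57BL/6J, with no treatment or altered gene named. Each library has a biosample of its own but shares 1 donor entry with the other, so whether their spread is one between animals or is technical cannot be told apart. The reads that fell on a miRNA gene, in its own direction, numbered 5183641 in replicate 1 and 5871233 in replicate 2. Levels are counts per 1000000 of these reads (CPM). The tissue is bulk, so fewer cells of a type and less RNA per cell cannot be told apart.

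A miRNA is cut from a hairpin precursor as a short RNA from the 5p or the 3p arm, and it pairs with messenger RNAs mainly through its seed, bases 2 to 8 from its 5′ end. The miR-34 and miR-449 genes form 1 seed family that lies at 3 loci. Mir34b, Mir34c and the Mir449 genes are best known from multiciliated cells, which line the brain ventricles as ependyma and also cover airways and oviducts. There they repress inhibitors of cilium formation such as Ccp110. Mir34a is expressed more broadly and, like Mir34b and Mir34c, is a transcriptional target of the tumour suppressor p53.

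The shared seed is what joins these genes into a family, and the arms that carry it are shown here with the seed in capitals. Sequences are from RefSeq on GRCm38.p6, where 5 of the 6 genes had a hairpin and 4 had a 5p arm. Mir449b had no entry there and Mir34c had no 5p arm entry, so the 5p arms of these genes could not be compared.
miR-34a-5p: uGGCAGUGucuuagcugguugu
miR-34b-5p: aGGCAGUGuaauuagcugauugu
miR-449a-5p: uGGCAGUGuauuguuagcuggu
miR-449c-5p: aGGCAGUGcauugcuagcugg
These 4 arms were the sole ones with the seed GGCAGUG among 1738 mature arms in the RefSeq table. Outside the seed they differed. Position by position from the 5′ end, without gaps, miR-34a-5p matched miR-449a-5p at 15 of 22 bases, with the leading 9 bases shared. It matched miR-34b-5p, which is 23 bases long, at 11 of 22. A base more or less puts all later bases out of register, so such a match can understate the likeness. Without gaps, the closest pair of these 4 arms were miR-449a-5p and miR-449c-5p, identical at 18 of 21 positions. The arms were 21 to 23 bases long.

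The opposite arms divide the family more finely, and their bases 2 to 8 are again in capitals.
miR-34a-3p: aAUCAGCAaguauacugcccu
miR-34b-3p: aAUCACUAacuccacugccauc
miR-34c-3p: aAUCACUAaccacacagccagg
The 3p arms of Mir34b and Mir34c had the same bases 2 to 8, which no other mature arm in the table had, and shared their leading 10 bases. That of miR-34a-3p was found in no other arm. The files give 1 count per gene, so reads from the 5p and the 3p arm cannot be told apart in any value below.

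The hairpins of the Mir34b and Mir34c cluster are shown because its genes, although neighbours, stood far apart in level. The letters GGCAGUG are in capitals.
Mir34b: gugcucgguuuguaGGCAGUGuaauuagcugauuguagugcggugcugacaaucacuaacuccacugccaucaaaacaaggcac
Mir34c: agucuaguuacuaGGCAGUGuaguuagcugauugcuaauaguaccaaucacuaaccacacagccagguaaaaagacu
Both carry these letters once on their own strand, at bases 15 to 21 of Mir34b and 14 to 20 of Mir34c. All 5 hairpins of the family in the table held GGCAGUG on their own strand, as did 12 other hairpins, and together these were 17 of 1005 (1.69%). On the other strand 15 of 1005 hairpins (1.49%) held it, Mir34b among them. A match in a hairpin is a description of the letters and does not show a mature arm.

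Mir34a (ENSMUSG00000065493.1) lies on chromosome 4 of mm10 from 150068454 to 150068555 on the plus strand, where its end overlaps an exon of the unclassified transcript Gm37795 on the same strand. Mir34b (ENSMUSG00000065492.1) and Mir34c (ENSMUSG00000065587.1) lie on the minus strand of chromosome 9, from 51103562 to 51103645 and from 51103034 to 51103110, with 451 bases between them. Both are inside an intron of Btg4, a protein-coding gene read from the plus strand. The Mir449 genes lie on the plus strand of chromosome 13, within an intron of Cdc20b, a gene of multiciliated cells that is read in the same direction. Mir449c (ENSMUSG00000076146.1, 113035983 to 113036091) comes before Mir449b (ENSMUSG00000078027.1, 113037419 to 113037498) and Mir449a (ENSMUSG00000065575.1, 113037534 to 113037624), and 35 bases separate Mir449b from Mir449a. No member overlaps a miRNA gene on the other strand. The longest stretch any of the 6 shared with another miRNA gene, on either strand, was 14 bases, between Mir449a and Mir679, and no pair within the family shared more than 11 bases. Multiply aligned reads made up 43.6% of replicate 1 and 43.2% of replicate 2. The authors' tables hold them apart from the gene counts, so they are missing from every level.

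How much of the family did the hippocampus hold? In each of the clusters on chromosomes 9 and 13, 1 gene held nearly all of the reads. Mir34c and Mir34a had almost the same mean level, Mir449a was lower and Mir34b lower still, and Mir449c and Mir449b had hardly any reads or none. All 6 genes together took 5451 of the gene-assigned counts in replicate 1 and 6908 in replicate 2. That was 0.105% (exact 95% interval 0.102 to 0.108) and 0.118% (0.115 to 0.120), or 0.111% ± 0.00884 (SD, n = 2). Without Mir34a, the share was 0.0694% in replicate 1 and 0.0538% in replicate 2. The summed share was thus higher in replicate 2 with Mir34a and higher in replicate 1 without it. Detection, set at 10 counts or more in both libraries, was met by 4 of the 6 genes, against 445 of all 2202 (20.2%).

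Mir34c, the member of the Mir34b and Mir34c cluster with by far the more reads, had 3109 counts in replicate 1 and 2407 in replicate 2. Its level was 600 CPM (exact 95% interval 579 to 621) in replicate 1 and 410 CPM (394 to 427) in replicate 2, or 505 ± 134 CPM (SD, n = 2). It ranked 122 of 2202 genes in replicate 1 and 143 in replicate 2. Intervals of this kind cover the counting error of reads only and leave out the spread between samples. No molecular identifiers are mentioned in the labels, so repeated reads of 1 molecule could not be set apart.

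Mir34a, the member expressed most broadly across tissues, had 1852 counts in replicate 1 and 3749 in replicate 2. These were 357 CPM (341 to 374) and 639 CPM (618 to 659), or 498 ± 199 CPM (SD, n = 2), at ranks 141 and 125. Replicate 2 was thus the higher library for Mir34a and the lower one for Mir34c, and in neither gene did the counting intervals of the libraries overlap. Differences beyond counting error were common, since 59.7% of the 472 tested genes passed the exact binomial test given below.

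Mir449a, the most abundant gene of the Cdc20b intron, had 439 and 674 counts. Its level was 84.7 CPM (77.0 to 93.0) in replicate 1 and 115 CPM (106 to 124) in replicate 2, or 99.7 ± 21.3 CPM (SD, n = 2), and its rank was 194 in both libraries. Mir34b, the cluster partner of Mir34c, had 51 and 74 counts, which were 9.84 CPM (7.33 to 12.9) and 12.6 CPM (9.90 to 15.8), or 11.2 ± 1.96 CPM (SD, n = 2). Its counting intervals overlapped between the libraries.

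The other 2 genes of the Cdc20b intron were nearly or wholly without reads. Mir449c had 0 counts in replicate 1 and 4 in replicate 2, the latter 0.681 CPM (0.186 to 1.74). Mir449b had 0 counts in both, which allows a level of up to 0.579 CPM in replicate 1 and 0.511 CPM in replicate 2, on a floor of 3 counts per library. Expression of Mir449b was therefore not detectable at this depth.

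**Figure D1:**
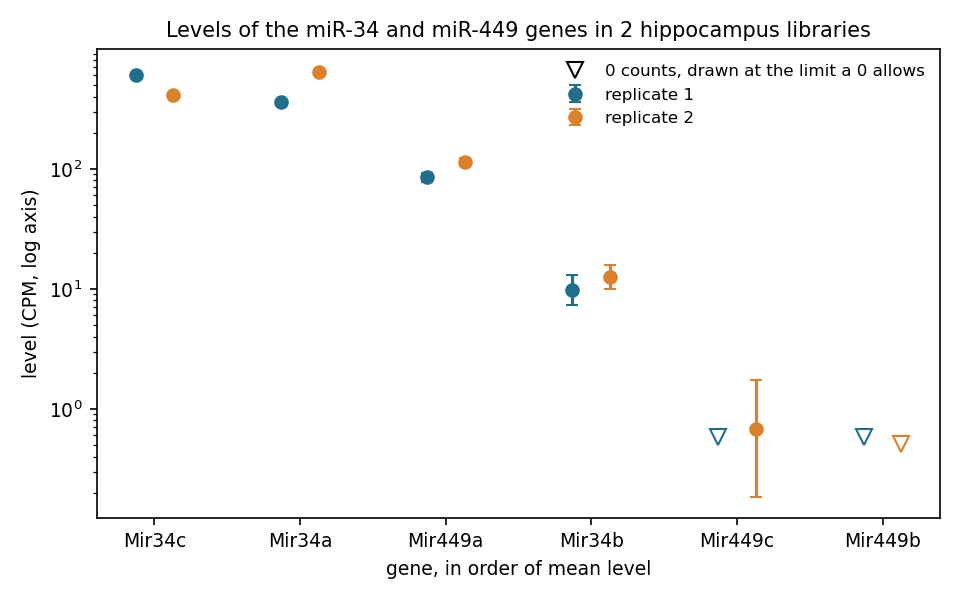
Level of each gene in CPM on a log axis, in replicate 1 and replicate 2, with exact 95% counting intervals as bars and open triangles for 0 counts at the limit that a 0 allows. Mir34c and Mir34a lie between 357 and 639 CPM and change places between the libraries, Mir449a lies at 84.7 and 115 CPM, and Mir34b lies at 9.84 and 12.6 CPM.

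By mean level the order was Mir34c, Mir34a, Mir449a, Mir34b, Mir449c and Mir449b. The leading pair could not be ordered: Mir34c was above Mir34a by 242 CPM in replicate 1 and below it by 229 CPM in replicate 2, a mean gap of 6.96 CPM with an SD of 333 (n = 2). Mir34a stood above Mir449a in both libraries, by 398 ± 178 CPM, Mir449a above Mir34b by 88.5 ± 19.3 CPM and Mir34b above Mir449c by 10.9 ± 1.47 CPM (SD of the gap, n = 2). Mir449c and Mir449b did not differ beyond their spread, with a gap of 0.341 ± 0.482 CPM. The annotated gene runs from 77 bases for Mir34c to 109 for Mir449c. Scaled per 100 bases of it, the mean levels were 656 CPM for Mir34c, 488 for Mir34a, 110 for Mir449a and 13.4 for Mir34b. Each read is a whole short RNA, so gene length need not raise its count, and Mir34c, the shortest gene, gains most. This scaling therefore cannot order the leading pair.

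The make-up of the family therefore differed between the libraries. Of the family's counts, Mir34a supplied 34.0% (exact 95% interval 32.7 to 35.3) and 54.3% (53.1 to 55.5) in replicates 1 and 2. The Mir34b and Mir34c cluster supplied 58.0% (56.6 to 59.3) and 35.9% (34.8 to 37.1), nearly all of it from Mir34c, which alone made up 57.0% and 34.8%. The Mir449 cluster supplied 8.05% (7.34 to 8.81) and 9.81% (9.12 to 10.5). Mir34a and the Mir34b and Mir34c cluster were thus each the larger source in 1 library, while the Mir449 share was the smallest of the 3 loci in both.

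**Figure D2:**
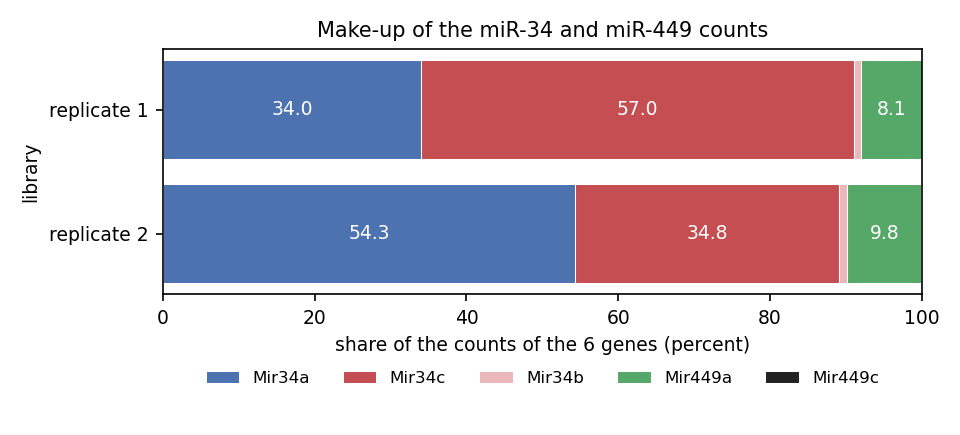
Share of the family's counts from each gene, in percent, as stacked bars for replicate 1 (5451 counts) and replicate 2 (6908 counts). Mir34a takes 34.0% and 54.3%, Mir34c 57.0% and 34.8%, and Mir449a 8.05% and 9.76%, while Mir34b is a thin band and Mir449c is too small to be seen.

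Within a library a ratio of counts does not depend on the scaling, so the clusters were examined in that way. Neighbouring genes of 1 cluster were far from equal in reads. Whether different miRNAs were captured equally well was not tested. In replicate 1, Mir34c had 61.0 times the counts of Mir34b (exact 95% interval 46.2 to 82.1), and in replicate 2 the ratio was 32.5 (25.8 to 41.6). The imbalance was present in both libraries, but its intervals did not overlap, and Mir34b made up 1.61% of the cluster's counts in replicate 1 and 2.98% in replicate 2. In the Cdc20b intron, Mir449c had no count in replicate 1, and Mir449a was 146-fold above the floor of 3 counts there. That figure takes the floor as given and leaves out counting error. In replicate 2 Mir449a was 169-fold higher than Mir449c (65.5 to 620). Mir449a held 100% of the counts of its cluster in replicate 1 (99.2 to 100) and 99.4% in replicate 2 (98.5 to 99.8).

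Between loci, the ratio of Mir449a to Mir34b was 8.61 in replicate 1 (6.43 to 11.7) and 9.11 in replicate 2 (7.16 to 11.7), with intervals that overlapped almost wholly. The other ratios had intervals that did not overlap between the libraries. How many ratios of other miRNA genes do the same was not counted. Mir34c over Mir449a was 7.08 (6.41 to 7.84) in replicate 1 and 3.57 (3.28 to 3.90) in replicate 2, and Mir34c over Mir34a was 1.68 (1.58 to 1.78) and 0.642 (0.610 to 0.676). The ratio of Mir34a to Mir449a was 4.22 (3.80 to 4.69) and 5.56 (5.12 to 6.05).

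**Figure D3:**
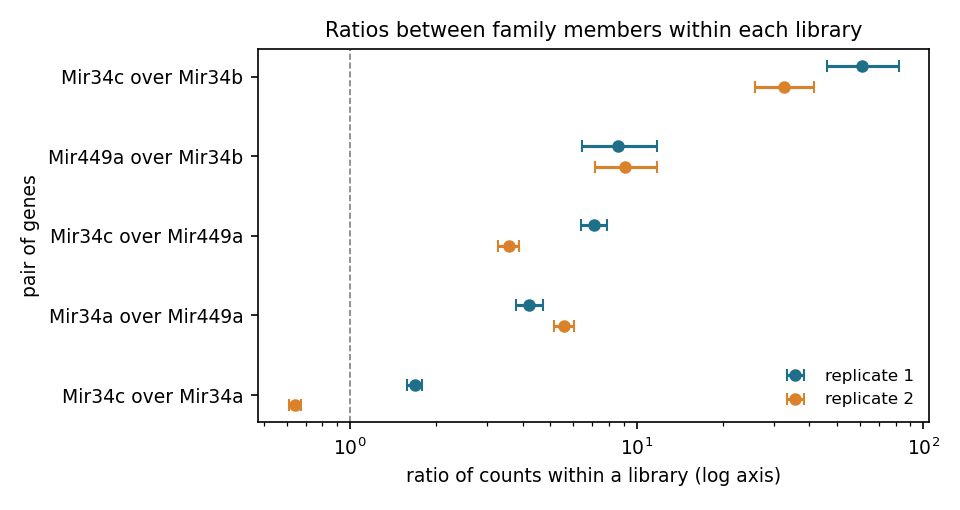
Ratio of the counts of pairs of family members within replicate 1 and replicate 2, on a log axis, with exact 95% intervals as bars and a dashed line at equal counts. The Mir449a to Mir34b ratio is 8.61 and 9.11, whereas Mir34c over Mir34a lies at 1.68 in replicate 1 and 0.642 in replicate 2, on either side of the line.

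Were the differences of single members larger than read sampling gives? Counts were compared with an exact binomial test, 2-sided, with Benjamini-Hochberg adjustment over the 472 miRNA genes that had a mean count of at least 10, and 4 members entered it. Mir34a was 1.79-fold higher in replicate 2 (exact 95% interval 1.69 to 1.89, adjusted p = 7.08e-97) and Mir449a 1.36-fold (1.20 to 1.53, adjusted p = 1.57e-06). Mir34c was 1.46-fold higher in replicate 1 (1.39 to 1.54, adjusted p = 2.42e-44). Mir34b did not pass, at a ratio of 1.28 for replicate 2 over replicate 1 (0.885 to 1.87, adjusted p = 0.259).

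These 3 of 4 members stand against a background of 59.7% of all tested genes that passed, with 39.4% higher in replicate 2 and 20.3% higher in replicate 1, so the number of calls is no feature of the family. The test takes reads as independent molecules and leaves out the spread between samples. On the log2(CPM + 1) scale the ratios of replicate 2 over replicate 1 were 0.84 for Mir34a, 0.43 for Mir449a, 0.33 for Mir34b and -0.55 for Mir34c, against a median of 0.16 over the 472 genes. Of the tested genes, 82.6% had a smaller absolute log2 ratio than Mir34a and 69.1% a smaller one than Mir34c. Trimmed-mean (TMM) scaling shifts every log2 ratio by -0.17 and gives 141 calls higher in replicate 2 and 137 in replicate 1 over all genes. With it the ratios were 0.67, 0.26, 0.17 and -0.72 for Mir34a, Mir449a, Mir34b and Mir34c, and the same 3 genes passed. Mir34c then had a larger absolute ratio than Mir34a, so which of them differed more depends on the scaling.

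**Figure D4:**
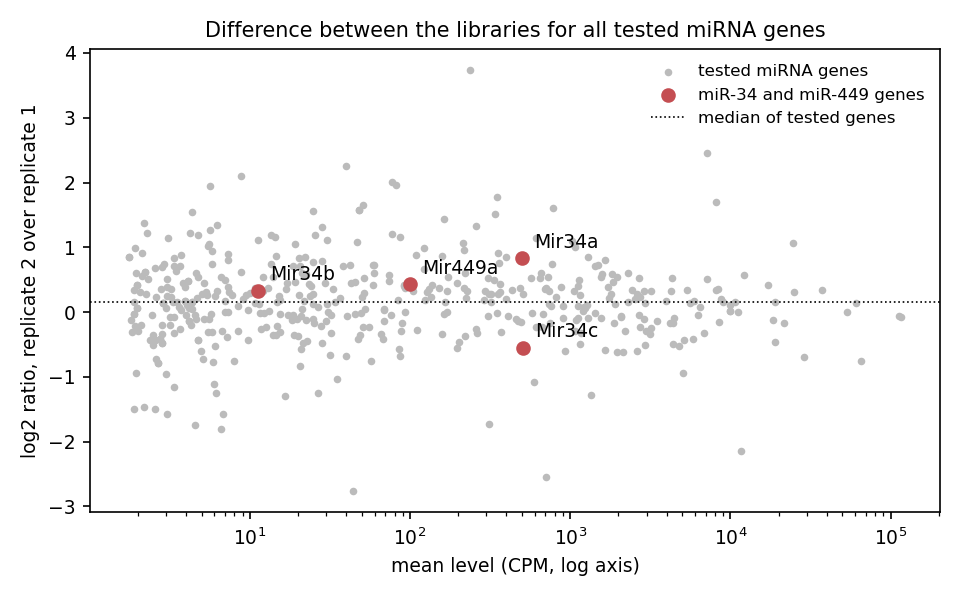
Log2 ratio of replicate 2 over replicate 1 against mean level in CPM (log axis) for the 472 tested miRNA genes in grey, with the 4 tested family members in red and the median of 0.16 as a dotted line. Mir34a (0.84) and Mir34c (-0.55), at nearly the same mean level, lie on opposite sides of the median and inside the cloud of other genes.

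Which genes had levels most like those of each member? Likeness was the distance of log2(CPM + 1) over the 2 libraries, among detected genes. Nearest to Mir34c were Mir669c (distance 0.28, with 516 and 464 CPM in replicates 1 and 2), Mir212 (0.31) and Mir181a-1 (0.36). Nearest to Mir34a were Mir7080 (0.32, with 419 and 545 CPM), Mir146 (0.40) and Mir1843b (0.41). Closer neighbours were found for Mir449a, in Mir1198 (0.13, with 93.0 and 116 CPM), Mir1188 (0.15) and Mir495 (0.16), and for Mir34b, in Mir7069 (0.09), Mir7004 (0.14) and Mir582 (0.14). No member was among the 3 genes nearest to another. With 2 libraries, this is a likeness of level and of 1 difference.

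Mir34b, Mir34c and the 3 Mir449 genes, which are best known from multiciliated cells, were read as a list. Which cells their reads came from was not tested. Of these 5 genes 3 were detected, against 20.2% of all genes. Of the 3 tested, 1 was higher in replicate 2, 1 was higher in replicate 1 and 1 did not pass, where 39.4% and 20.3% of all tested genes were called in these directions. Their summed level was 694 CPM in replicate 1 and 538 CPM in replicate 2, and Mir34c, with 600 and 410 CPM, was the sole tested gene of the list that was lower in replicate 2.

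Other cells near the ventricles were followed with a list of choroid plexus and epithelial miRNA genes, since choroid plexus epithelium borders the hippocampus. Its summed level was 722 CPM in replicate 1 and 650 CPM in replicate 2. Of its 7 genes 5 were detected and 6 tested, of which 1 was higher in replicate 2, 2 were higher in replicate 1 and 3 did not pass. Among all tested genes 59.7% were called, 39.4% and 20.3% in these directions. Mir204, which lies in the channel gene Trpm3 and is abundant in choroid plexus, supplied most of it with 656 and 559 CPM. The epithelial genes Mir200b and Mir200c, of a family that keeps epithelial identity, had 15.2 and 35.9 CPM and 22.2 and 27.3 CPM. The median log2 ratio of the tested genes was 0.10, beside 0.16 over all tested genes, and -0.05 with TMM scaling. The 3 called genes did not run one way. Mir204 and its relative Mir211, with 22 and 5 counts, were higher in replicate 1 (log2 ratios -0.23 and -1.50), as was Mir34c (-0.55), and Mir200b was higher in replicate 2 (1.19), as was Mir449a (0.43). The part of these cells in the differences of the family was not tested.

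The list of miRNA genes linked to p53 held 12 genes, 3 of them members of the family. Of these 12 genes 10 were detected and tested, with 5 higher in replicate 2, 4 higher in replicate 1 and 1 that did not pass, beside 39.4% and 20.3% of all tested genes in these directions. Their median log2 ratio was 0.33 beside 0.16 over all tested genes. With TMM scaling 4 were higher in replicate 2, since Mir194-2 no longer passed (adjusted p = 0.172 in the exact binomial test), and the median was 0.17. The highest, Mir107, which lies within a pantothenate kinase gene, had 3481 and 2929 CPM, and Mir143, a smooth muscle miRNA, had 3534 and 2801 CPM. The growth-restraining Mir15a, at 250 and 360 CPM, was higher in replicate 2 as Mir34a was, whereas Mir145a, the cluster partner of Mir143, was lower there at 143 against 480 CPM.

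The labelled tissue was checked with neuronal miRNA genes, some of which were abundant. Of 12 genes 9 were detected, with a summed level of 33099 CPM in replicate 1 and 34888 CPM in replicate 2, led by Mir132 (17116 ± 3460 CPM), Mir128-1 (6294 ± 123 CPM) and Mir138-1 (5856 ± 1194 CPM, SD, n = 2). Of the 9 tested, 1 was higher in replicate 2, 6 were higher in replicate 1 and 2 did not pass, beside 39.4% and 20.3% of all tested genes in these directions, and the median log2 ratio was -0.22. In these counts the Mir9 genes of the list were lower, at a mean of 86.0 CPM for Mir9-3, 12.6 CPM for Mir9-1 and 1.32 CPM for Mir9-2. Mir124a-1, Mir124a-2 and Mir124a-3, copies of 1 defining neuronal miRNA, had at most 16 counts in a library. Reads that align to more than 1 copy are not in these counts. The counts of the Mir124a, Mir9, Mir128 and Mir138 genes therefore do not give the levels of their mature miRNAs in this tissue.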

How the data were processed

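MicroRNA sequencing of 2 libraries of 1 group was used. Raw counts of reads for each miRNA gene were deposited by the authors, on mm10 with GENCODE M21 per the text files deposited with them, with aligner and counter not given in the sources used here. Of the 3 count columns, the one for the strand of the gene was taken. The 4 rows that name no gene, 62.7% and 63.3% of reads, were left out of the totals of 5183641 and 5871233 counts. All 2202 identifiers matched GENCODE M21. Sequences came from RefSeq on GRCm38.p6.

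CPM used the gene-assigned total, and log2 values a pseudocount of 1 CPM. With 1 group a quasi-likelihood test has no coefficient, so libraries were compared by an exact binomial test (scipy 1.17.1). The test was tried on simulated counts that held counting error only, so that trial does not cover the spread between samples. TMM scaling came from edgeR 4.0.16 and other size factors from DESeq2 1.42.0. Intervals are exact Clopper-Pearson intervals at 95%. Named were all members, the genes that overlap them, and miRNA genes within 10 kb or with the same seed. Also named were the 3 genes nearest in level and the 3 highest of each list. The Mir124a copies and some list members were named after their values were seen. Members and lists were chosen with earlier results of these data known.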

Additional observations from a re-analysis of the deposited data

Results flagged for a closer look

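Mir34b had reads on the strand opposite the gene, in a count column that no comparison used. There were 6 in replicate 1 and 7 in replicate 2, above the floor of 3 counts. They made up 10.5% (exact 95% interval 3.96 to 21.5) and 8.64% (3.55 to 17.0) of its reads on both strands. The other members had 0 in both libraries. Of 2138 miRNA genes with no miRNA gene on the other strand, 8 exceeded 3 such counts in both libraries. These were Mir34b, Mir130a, Mir3083, Mir5620, Mir708, Mir7240, Mir7654 and Mir8105, a set named after its values were seen. Of all opposite-strand counts on the 2138 genes, which were 176 and 223, Mir34b thus held a small part. Where these reads come from was not tested.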

How the results depend on the processing

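With reads aligned to several places added to the total, the family's share was 0.0513% instead of 0.111%, since the total is larger by construction. Each library alone gave 0.105% to 0.118% for that share, 32.5 to 61.0 for Mir34c over Mir34b and 99.4% to 100% for the Mir449a share of its cluster. The gap of Mir34c over Mir34a ran from -229 CPM in replicate 2 alone to 242 CPM in replicate 1 alone, so its direction reversed without replicate 1. With a minimum of 100 counts, 2 of the choroid plexus and epithelial genes were detected instead of 5. The directions of the 4 log2 ratios and the 3 calls among the members held under the scalings, count minimums, pseudocounts and the column that ignores strand, except that Mir34b was not tested at a minimum of 100. In that column the level of Mir34b was 13.2 CPM. The values of Mir34b, Mir449b and Mir449c rest on few counts or none. No paired analysis was possible because there is 1 group.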
